A study of Homo sapiens with 8 samples.

Results

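The human genome carries histones as 2 kinds of gene. The replication-dependent genes encode the bulk H1, H2A, H2B, H3 and H4, lie in clusters, have no introns and give mRNAs that end in a stem-loop in place of a poly(A) tail. The variant genes stand alone, mostly carry introns and give polyadenylated mRNAs. Histone genes were taken here by symbol, with no measured value used, and 75 of the 14668 genes of the count table matched. Of these, 65 are stem-loop genes (6 H1, 16 H2A, 17 H2B, 13 H3 and 13 H4). Another 9 are polyadenylated variants, among them H1-10, H2AZ1, H2AZ2, H2AJ, H3-3A, H3-3B, MACROH2A1 and MACROH2A2. The remaining gene, H2AX, gives both kinds of 3′ end. In RefSeq coordinates (GRCh38.p14), 54 stem-loop genes lie on chromosome 6 between positions 25726063 and 27893891, and 11 lie on chromosome 1, whereas the variants and H2AX are spread over several chromosomes.

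Stem-loop histone mRNAs are made in S phase, when new DNA must be packed into nucleosomes. NPAT switches on their transcription under cyclin E and CDK2, and the stem-loop binding protein SLBP carries the transcripts through 3′ processing and translation and takes the place that the poly(A)-binding protein holds on other mRNAs. The variants are made through the whole cell cycle and supply histones for sites where nucleosomes are exchanged outside replication. Some stem-loop genes are also known to give a share of polyadenylated transcripts in differentiated or non-dividing cells, and 6 of them (H1-2, H2AC6, H2BC4, H2BC5, H2BC12 and H2BC21) were given apart as well.

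T3M4, an established human pancreatic cancer cell line, was studied with a guide RNA against METTL13 (sgMETTL13) or with a non-targeting guide (sgControl); METTL13 is the methyltransferase of the elongation factor eEF1A. Cells of both kinds were lysed 2 h after 10% FBS was added to end 18 h of serum starvation, so no group shows cells in steady growth. Poly(A) RNA-seq and ribosome footprints captured on beads with a puromycin analog were made from such lysates, with 2 libraries for each guide and assay and 8 in all. Nothing in the labels tells if the replicates came from independent cultures or clones, so every p-value below measures the spread between these libraries. Oligo(dT) beads bind poly(A) tails, so RNA-seq counts a stem-loop histone mRNA only as far as some of its molecules were captured on them, while footprints are counted whatever the 3′ end.

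Library totals ran from 8916807 to 9837253 footprints in sgMETTL13 and from 6063885 to 8181707 in sgControl, and from 20860953 to 48353722 counts in RNA-seq. METTL13 itself had 20.1 and 26.2 CPM (a gene's count scaled to the library total with TMM factors) of footprints in sgMETTL13 and 65.2 and 57.8 CPM in sgControl. Its mRNA had 25.2 and 35.1 CPM in sgMETTL13 and 89.7 and 71.4 CPM in sgControl. The 6 epithelial markers checked (KRT7, KRT8, KRT18, KRT19, EPCAM and CDH1) were at 1 CPM or more in all 8 libraries. The 5 fibroblast markers in the table summed to between 21.6 and 32.9 CPM, most of it COL1A1. The 3 leukocyte markers in the table summed to between 1.2 and 1.87 CPM in footprints and between 20.6 and 49.3 CPM in RNA, most of it CD68. The sgMETTL13 RNA replicates stood apart from each other: the SD over genes of their log2 difference was 0.880, against 0.360 for the sgControl RNA replicates and 0.274 and 0.324 for the sgMETTL13 and sgControl footprint replicates. The spread in the mRNA comparison was correspondingly wide, with a common biological coefficient of variation of 0.337 in RNA and 0.0992 in footprints.

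**Figure D1:**
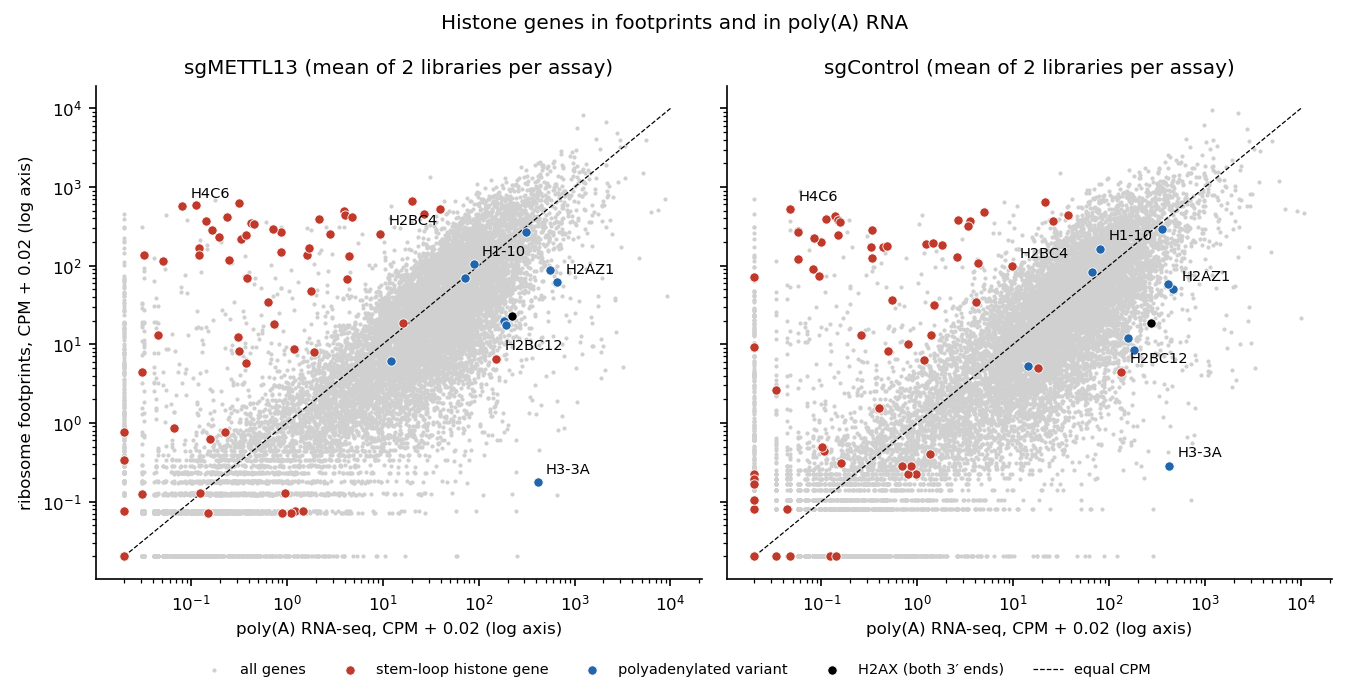
Mean footprint level against mean mRNA level of each gene (TMM CPM with 0.02 added, log axes), sgMETTL13 on the left and sgControl on the right; coloured points are histone genes by kind of 3′ end, grey points all other genes, and the dashed line marks equal CPM in both assays. Most stem-loop genes lie far above the line in both panels, and H3-3A, with at most 3 footprints in any library, lies far below it.

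Stem-loop histones held many footprints beside very few poly(A)-selected reads, and most polyadenylated variants showed the reverse. Summed over the 65 stem-loop genes, footprints came to 9984.7 and 10600 CPM in the sgMETTL13 libraries, against 8869.1 and 8496.7 CPM in sgControl. Their summed mRNA was 276 and 348 CPM in sgMETTL13 and 286 and 295 CPM in sgControl. Without the 6 genes known to give polyadenylated transcripts as well, the mRNA sum was 38.9 and 58.8 CPM in sgMETTL13 and 44.6 and 43.9 CPM in sgControl. The 9 variants had summed footprints of 632 and 635 CPM in sgMETTL13 and 711 and 635 CPM in sgControl, beside 2375.8 and 2590.5 CPM of mRNA in sgMETTL13 and 2320.7 and 1997.2 CPM in sgControl. Footprint sums of the stem-loop class were higher in both sgMETTL13 libraries than in both sgControl libraries. Those of the variants were lower in both sgMETTL13 libraries than in both sgControl libraries, but nearly level at the nearest. The higher sgMETTL13 library had 634.96 CPM and the lower sgControl library 635.06 CPM. In bulk lysates, fewer cells making a histone mRNA and less of it per cell cannot be told apart.

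The log2 ratio of footprint CPM to mRNA CPM was tested gene by gene in 1 edgeR model over the 8 libraries, where 0 means that a gene takes the same share of both kinds of library; footprints cover the coding region and RNA reads the whole transcript, so transcripts with long untranslated parts sit lower. Of all 10446 genes tested, 21% stood above 0 and 38.5% below it in sgMETTL13 at an adjusted p below 0.05, 59.6% in all, with a median of -0.35. In sgControl, 25.8% stood above and 36.4% below, 62.2% in all, with a median of -0.23. Of the 75 histone genes, 36 had enough counts in both assays. Among the 27 stem-loop genes tested, 25 stood above 0 and 1 below in sgMETTL13 (median 5.06), and 25 above and 2 below in sgControl (median 4.89, range -4.94 to 9.09). Among the 8 variants, 0 stood above and 5 below in sgMETTL13 (median -1.83), and 1 stood above and 5 below in sgControl (median -2.15). Capture on oligo(dT) beads differs between the 2 classes, and its part in these counts was not tested.

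The highest ratios belonged to stem-loop genes with few RNA reads, which are the denominator of the ratio. The part of few RNA reads in these ratios was not tested. H4C11, the lowest of those above 0 in sgControl, had 8 and 22 RNA reads in sgMETTL13 and 14 and 8 in sgControl. Its footprints were few as well, 72 and 37 in sgMETTL13 and 15 and 7 in sgControl. H3C7, a canonical H3 gene, had 226 and 259.9 CPM of footprints in sgMETTL13 and 178 and 168 CPM in sgControl, beside 11 and 19 RNA reads in sgMETTL13 and 12 and 6 in sgControl. Its log2 ratio was 9.42 in sgMETTL13 (SE 0.416) and 9.09 in sgControl (SE 0.422). H2BC7 stood at 8.73 in sgMETTL13 and 8.63 in sgControl, H2AC16 at 7.58 in sgMETTL13 and 8.60 in sgControl, and H1-3 at 8.32 in sgMETTL13 and 8.59 in sgControl. The other stem-loop genes above 0 in both were H1-2, H2AC6, H2AC8, H2AC13, H2AC17, H2AC20, H2BC4, H2BC5, H2BC8, H2BC9, H2BC11, H2BC13, H2BC15, H2BC17, H2BC18, H3C2, H3C4, H3C6, H3C10, H4C8 and H4C11. In sgControl their log2 ratios ran from 1.98 for H4C11 to 7.30 for H2AC20. The 8 stem-loop genes whose RefSeq span is over 1000 bases had a median of 3.74 over the 7 tested in sgMETTL13 and 3.33 in sgControl, against 6.43 in sgMETTL13 and 6.10 in sgControl over the 20 tested genes with a shorter span.

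A further 18 stem-loop genes passed the filter on low counts in footprints only, and together they held 44600 and 44266 footprints in sgMETTL13 and 33685 and 22589 in sgControl beside 108 and 155 RNA reads in sgMETTL13 and 56 and 35 in sgControl. H4C6, an H4 gene, had 581 and 559 CPM of footprints in sgMETTL13 and 581 and 464 CPM in sgControl with 1 and 4 RNA reads in sgMETTL13 and 2 and 0 in sgControl. H4C2, another gene for the same H4 protein, had 3 and 5 RNA reads in sgMETTL13 and 5 and 1 in sgControl beside 585 and 589.6 CPM of footprints in sgMETTL13 and 426 and 356 CPM in sgControl. H2AC7 had 3 RNA reads in sgMETTL13 replicate 1 and 0 in the other libraries, beside 90 and 139 CPM of footprints in sgMETTL13 and 78.8 and 66.3 CPM in sgControl. The span of H2AC7 lies within that of H3C4, so reads there cannot be split between the 2 genes. The part of this overlap in the counts of H2AC7, in either assay, was not tested. For the 18 genes no mRNA change and no footprint-to-mRNA ratio was tested on the full set of libraries.

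Both stem-loop genes that stood below 0 in sgControl are among the 6 known to give polyadenylated transcripts. The 6 were set apart with earlier results of these data known, so the split is a description and no test. H2BC12 had 139 and 163 CPM of mRNA in sgMETTL13 and 130.5 and 138 CPM in sgControl, but only 6.3 and 6.81 CPM of footprints in sgMETTL13 and 3.63 and 5.3 CPM in sgControl. Its log2 ratio was -4.53 in sgMETTL13 and -4.94 in sgControl (adjusted p = 4.88e-06, edgeR). H2BC21 had 16.7 and 16 CPM of mRNA in sgMETTL13 and 16.5 and 19.8 CPM in sgControl, with a log2 ratio of 0.20 in sgMETTL13 (edgeR adjusted p = 0.644) and -1.85 in sgControl (adjusted p = 0.00234). The other 4, H1-2, H2AC6, H2BC4 and H2BC5, stood between 3.33 and 4.89 in sgControl, and the 21 stem-loop genes outside the 6 all stood above 0 in both kinds of cell, with a median of 6.45 in sgMETTL13 and 6.58 in sgControl.

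Of the variants, the linker histone H1-10 had the highest ratio, 0.23 in sgMETTL13 and 1.00 in sgControl (adjusted p = 0.0109, edgeR). H2AZ2, the second H2A.Z gene, stood at -3.44 in sgMETTL13, the lowest of the variants there, and at -3.70 in sgControl. H2AZ1, which encodes the main H2A.Z, stood at -3.40 in sgMETTL13 and -3.22 in sgControl, and H3-3B, 1 of the 2 genes for the replacement histone H3.3, at -2.64 in sgMETTL13 and -2.85 in sgControl. MACROH2A2, a macroH2A gene, stood at -1.02 in sgMETTL13 and -1.45 in sgControl. H2AJ and MACROH2A1 did not differ from 0 at an adjusted p below 0.05 in either, at -0.05 and -0.24 in sgMETTL13 and 0.34 and -0.30 in sgControl. H2AX, whose product is the H2A that is phosphorylated beside DNA breaks, stood with the low variants at -3.26 in sgMETTL13 and -3.89 in sgControl. Several low values belong to genes with pseudogenes named for them in RefSeq, 7 for H2AZ1 and 7 for H3-3A, 2 for H3-3B and 1 for H2AZ2. H2AX and MACROH2A2, which also stood below 0, have 0. How reads with several alignments were counted is not given in the sources used here, and the part of such copies in these values was not tested.

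**Figure D2:**
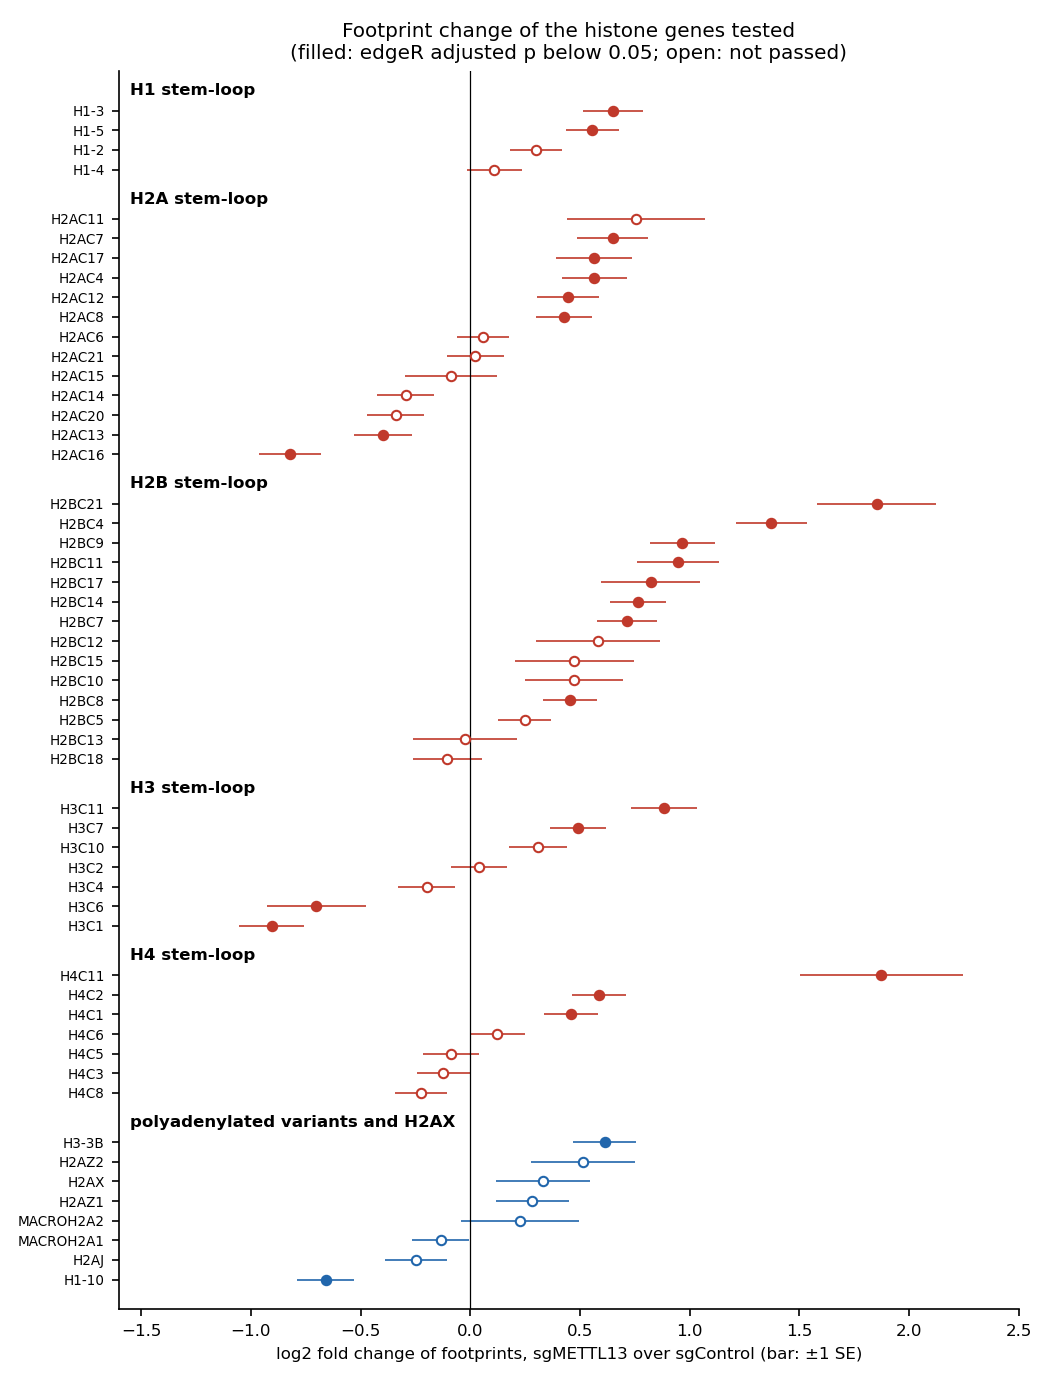
Log2 fold change of footprints, sgMETTL13 over sgControl, for histone genes tested, by histone family; bars are 1 SE and filled points passed an adjusted p of 0.05 (edgeR). The H2B family holds 8 filled points to the right of 0 and 0 to the left, while H2A and H3 hold filled points on both sides.

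Footprints on histone mRNAs were then compared between sgMETTL13 and sgControl, fitted with edgeR on the 4 footprint libraries. More histone genes rose than fell, led by H2B genes: 22 of the 54 tested had more footprints in sgMETTL13 and 5 had fewer, and their median log2 fold change was 0.38. Over all 10714 genes tested, 8.94% passed as higher and 12% as lower, 21% in all, with a median of 0.01. By kind of 3′ end, 20 of 45 stem-loop genes rose and 4 fell (median 0.44), the 8 variants tested had a median of 0.26, and H2AX did not pass. Of the 6 stem-loop genes with known polyadenylated transcripts, 2 rose and 0 fell (median 0.44); of the other 39 tested, 18 rose and 4 fell (median 0.44). No gene entered this test through 1 kind of cell alone: each of the 54 reached the filter's minimum of 1.17 CPM in at least 1 library of each guide. The other 21 histone genes had at most 9 footprints in any library.

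The calls rest on the spread between 2 footprint libraries a side. Fitted with the RNA libraries under 1 common spread, 0 of the 54 passed, and 0 of all genes did. A fit that leaves out 1 footprint library keeps 1 library for that guide, and its spread is then taken from the other guide. Over all genes, more passed in some of these fits and fewer in others, so passing them is a weak check. Without sgMETTL13 replicate 2 fewer genes passed, among histone genes and over all genes alike. The changes that passed whichever single footprint library was left out included rises of H2BC4, H2BC7, H2BC9, H2BC11, H2BC14, H2BC21, H3C11, H4C2 and H4C11. They also included falls of H2AC16, H3C1 and H1-10.

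**Figure D3:**
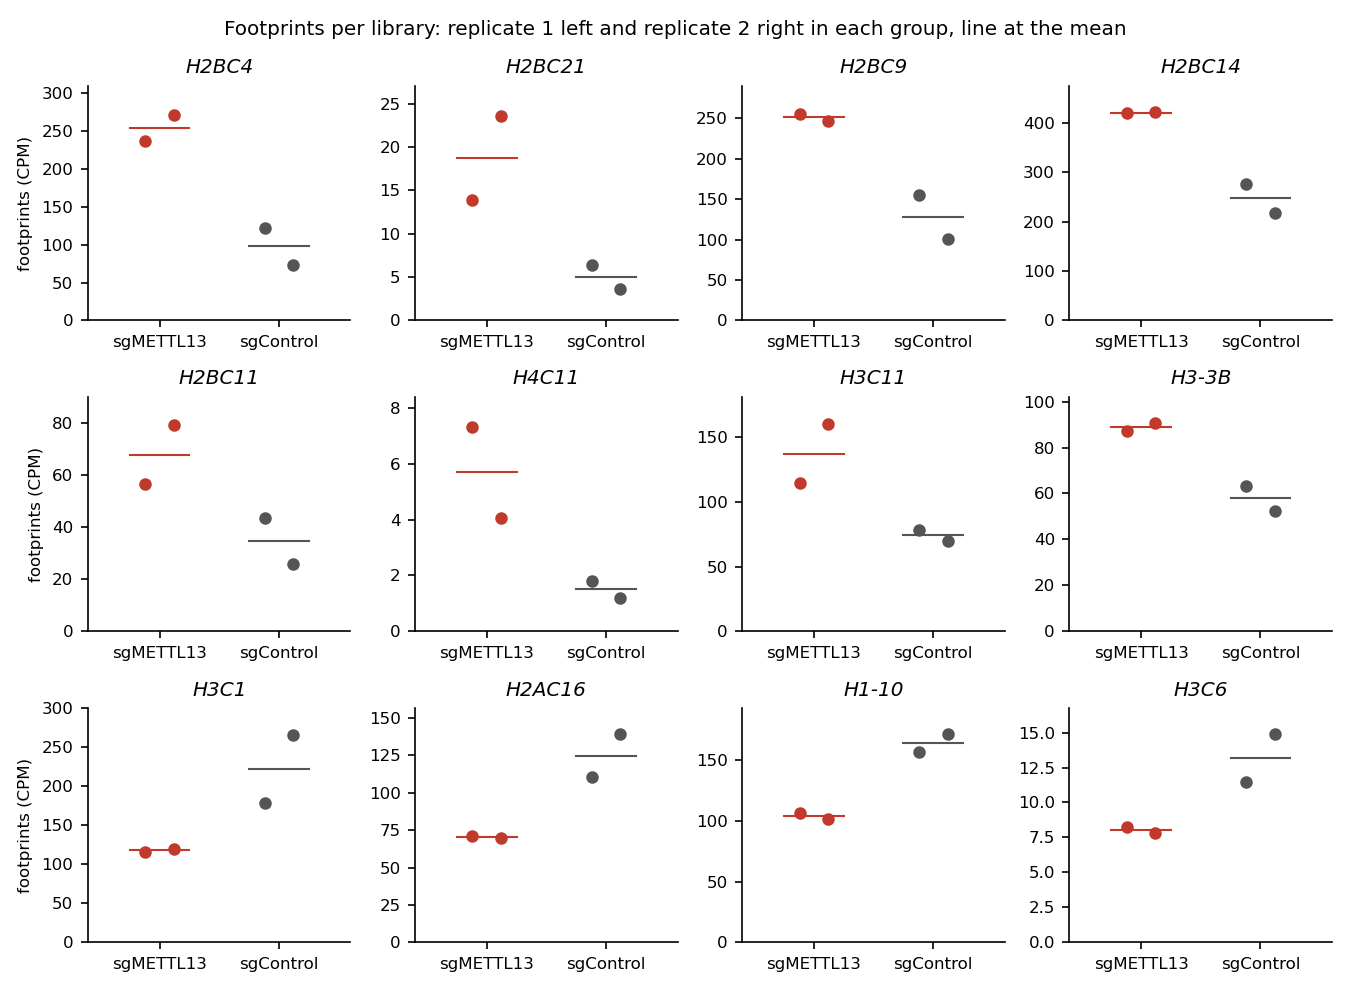
Footprint CPM of 12 histone genes in each library, sgMETTL13 left and sgControl right in each panel; points are libraries and bars group means. Both sgMETTL13 points lie above both sgControl points for H2BC4, H2BC21, H2BC9, H2BC14, H2BC11, H4C11, H3C11 and H3-3B, and below them for H3C1, H2AC16, H1-10 and H3C6.

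H2B, which pairs with H2A in the nucleosome, was the family with the most rises. Its summed footprints were 2331 and 2393 CPM in sgMETTL13 and 1647.9 and 1411.4 CPM in sgControl, and 8 of 14 genes tested rose, 0 fell and the median was 0.65. H2BC4 had 237 and 271 CPM in sgMETTL13 and 122 and 73.5 CPM in sgControl, a log2 fold change of 1.37 (SE 0.161, adjusted p = 7.73e-07). H2BC21, which encodes an H2B that differs from the common one at few residues and is made outside S phase as well, had 13.9 and 23.6 CPM in sgMETTL13 and 6.41 and 3.59 CPM in sgControl, a log2 fold change of 1.85 (SE 0.27, adjusted p = 2.24e-05). H2BC21 gave few footprints, between 21 and 215 a library, but its lower sgMETTL13 library lay above its higher sgControl library. H2BC9 had 256 and 247 CPM in sgMETTL13 and 155 and 101 CPM in sgControl (log2 0.97, SE 0.15, adjusted p = 4.89e-05). H2BC11 had 56.5 and 79.3 CPM in sgMETTL13 and 43.6 and 25.8 CPM in sgControl (log2 0.95, SE 0.187, adjusted p = 6.39e-04). H2BC14 had 420.0 and 421 CPM in sgMETTL13 and 276 and 218 CPM in sgControl (log2 0.76, SE 0.129, adjusted p = 1.35e-04). In each of these the libraries of the 2 guides did not overlap. The same was true, in either direction, of 41 of 54 histone genes and 6866 of all 10714 genes tested. Lack of overlap is therefore common and not particular to the genes named here.

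The other 3 H2B genes that rose did so by smaller amounts or with fewer footprints. H2BC7 had 292 and 298 CPM in sgMETTL13 and 208 and 151 CPM in sgControl (log2 0.71, adjusted p = 5.30e-04). H2BC8 had 426 and 459.8 CPM in sgMETTL13 and 329 and 317 CPM in sgControl (log2 0.45, adjusted p = 0.00795). H2BC17 had 14.9 and 21.2 CPM in sgMETTL13 and 12 and 8.04 CPM in sgControl (log2 0.82, adjusted p = 0.00959). Without sgMETTL13 replicate 2 neither H2BC8 nor H2BC17 passed, and without sgControl replicate 2 H2BC17 did not pass. H2BC5, the H2B gene with the most footprints in sgControl, did not pass, with 549 and 494 CPM in sgMETTL13 and 431 and 448 CPM in sgControl (log2 0.25, adjusted p = 0.14). The remaining 5 that did not pass were H2BC10, H2BC12, H2BC13, H2BC15 and H2BC18, with log2 fold changes between -0.10 and 0.58.

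H2B and H2A genes often lie head to head and share the stretch between their starts as a promoter. With starts at most 300 bases apart and pointing away from each other, 10 such pairs were found in RefSeq, and both genes were tested in 9. This comparison was chosen after the values of the single genes had been seen. The stretches between the starts of the 3 pairs in which the H2B gene rose and its partner did not by the widest margin, of a pair in which both rose, and of a pair in which the H2B gene did not pass and the H2A gene fell, are printed for comparison (GRCh38.p14, plus strand, from RefSeq). The H2B start lies at the left end in each but H2BC14 and H2AC14, where it lies at the right. Capitals mark the TATA box (TATAAA), the CCAAT box (CCAAT) and the histone octamer (ATTTGCAT), each on either strand, with no overlap between them.
H2BC21 and H2AC20, chr1:149886683-149886917: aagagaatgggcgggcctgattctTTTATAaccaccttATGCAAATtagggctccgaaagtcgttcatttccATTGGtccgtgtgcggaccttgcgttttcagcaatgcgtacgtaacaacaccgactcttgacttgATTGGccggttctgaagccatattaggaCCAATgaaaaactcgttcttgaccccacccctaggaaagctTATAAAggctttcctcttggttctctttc
H2BC4 and H2AC6, chr6:26123927-26124171: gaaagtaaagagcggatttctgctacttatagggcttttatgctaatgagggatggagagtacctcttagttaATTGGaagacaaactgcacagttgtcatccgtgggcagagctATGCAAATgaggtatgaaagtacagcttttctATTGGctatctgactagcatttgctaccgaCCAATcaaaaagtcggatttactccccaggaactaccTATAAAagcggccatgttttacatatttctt
H2BC14 and H2AC14, chr6:27814778-27815021: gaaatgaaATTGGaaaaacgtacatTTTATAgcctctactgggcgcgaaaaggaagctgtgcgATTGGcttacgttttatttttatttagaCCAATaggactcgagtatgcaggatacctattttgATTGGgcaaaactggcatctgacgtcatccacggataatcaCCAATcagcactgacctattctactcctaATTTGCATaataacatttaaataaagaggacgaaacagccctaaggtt
H2BC8 and H2AC8, chr6:26216689-26216920: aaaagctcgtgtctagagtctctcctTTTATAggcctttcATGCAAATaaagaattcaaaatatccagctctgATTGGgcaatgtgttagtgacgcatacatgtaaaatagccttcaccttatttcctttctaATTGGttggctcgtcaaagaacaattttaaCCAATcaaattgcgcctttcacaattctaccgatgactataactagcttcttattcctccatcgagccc
H2BC13 and H2AC13, chr6:27807930-27808172: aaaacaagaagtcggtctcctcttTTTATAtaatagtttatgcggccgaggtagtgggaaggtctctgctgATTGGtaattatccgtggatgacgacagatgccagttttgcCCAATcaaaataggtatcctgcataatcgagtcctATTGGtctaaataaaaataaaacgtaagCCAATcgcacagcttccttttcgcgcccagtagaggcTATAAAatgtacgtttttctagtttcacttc

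The first 4 hold the octamer and the last does not. In the 250 bases before the start, 82.4% of the 17 H2B genes and 73.3% of 15 H2A genes hold it, against 0% of 6 H1 and 11 H4 genes, 9.09% of 11 H3 genes and 1.66% of all 27305 genes with a RefSeq promoter. Of the H2B genes whose footprints rose, 8 of 8 hold it, and of those that did not pass, 3 of 6. Of the H2A genes with a RefSeq promoter, 4 of 4 that rose, 5 of 6 that did not pass and 1 of 2 that fell hold it. Partners of a divergent pair share the stretch searched, so the H2B and H2A counts hold some of the same octamers and are not independent. The only H3 gene that holds it is H3C4, whose annotated start is that of H2AC7. Its octamer is thus the one also counted for H2AC7. The TATA box is held by 66.7% of 60 stem-loop genes and 11.1% of all genes, and the CCAAT box by 86.7% of stem-loop genes and 33.0% of all genes. A match is a description of the letters and not of a factor bound there.

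**Figure D4:**
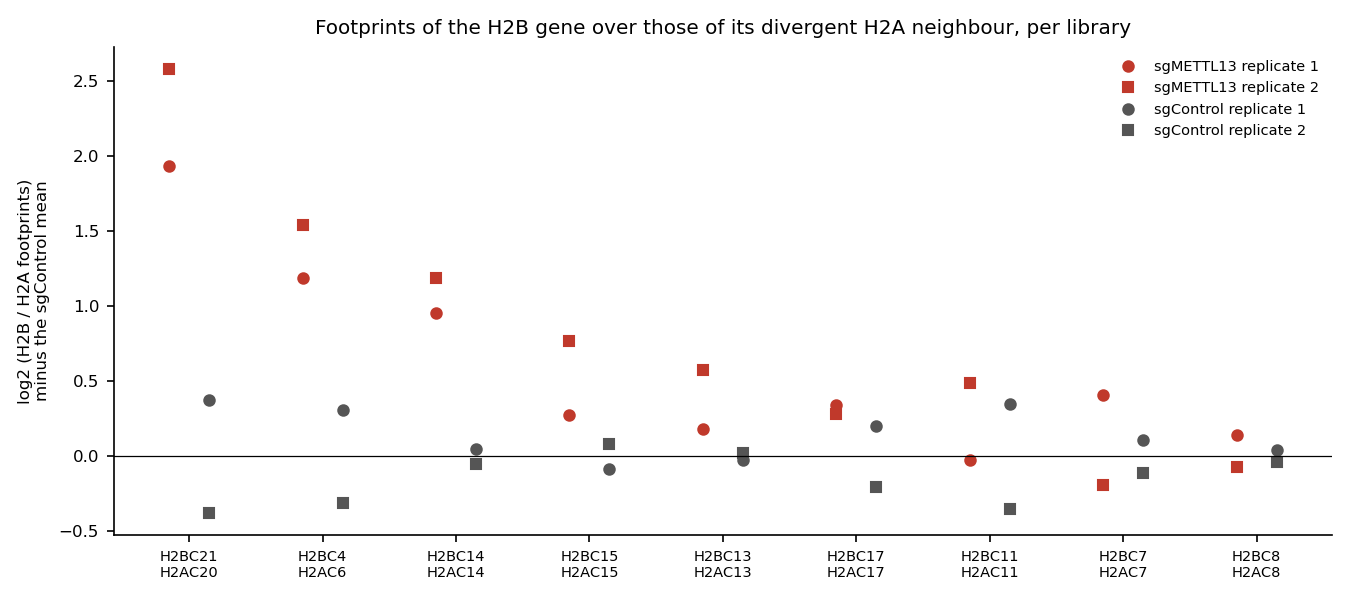
For the 9 divergent pairs tested, the log2 ratio of H2B to H2A footprints in each library, less the mean of the 2 sgControl libraries; sgMETTL13 points are drawn left of sgControl points. The ratio was higher in both sgMETTL13 libraries than in both sgControl libraries for 6 pairs, by most for H2BC21 and H2AC20. This was not counted over other pairs of genes, so the 6 have no background share beside them.

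Across the shared stretch, the H2B gene had the larger fold change in 9 of 9 pairs, although the margin was small in some. With a single footprint library left out this held in 6 to 9 pairs, and 6 was the count without sgControl replicate 2. In 4 pairs the H2B gene rose and the H2A gene did not pass, and in 3 both rose. H2BC11 and H2AC11 are among the 4, with log2 fold changes of 0.95 and 0.76 (adjusted p = 0.0856 for H2AC11, edgeR). H2BC21 and H2AC20 differed most, by 2.19 on the log2 scale: H2AC20 had 144 and 157 CPM in sgMETTL13 and 196 and 185 CPM in sgControl, against the rise of H2BC21. The margin was 1.31 for H2BC4 and H2AC6, and H2AC6 had 705 and 632 CPM in sgMETTL13 and 667 and 617 CPM in sgControl. It was 1.06 for H2BC14 and H2AC14, and H2AC14 had 251 and 214 CPM in sgMETTL13 and 309 and 261 CPM in sgControl. In H2BC15 and H2AC15 the margin was 0.56 and in H2BC13 and H2AC13 it was 0.37, with both ratios higher in sgMETTL13. It was 0.26 for H2BC17 and H2AC17, the sixth pair whose ratio did not overlap between the guides. For H2BC11 and H2AC11, H2BC7 and H2AC7, and H2BC8 and H2AC8 the margins were 0.19, 0.06 and 0.03 and the ratios overlapped. The margin itself was not tested for any pair. Lack of overlap of such ratios was not counted over other pairs of genes. For single genes it was common, with 6866 of all 10714 genes tested, so the 6 pairs are given as a description.

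H2A genes moved both ways. Their summed footprints were 2427.5 and 2627.5 CPM in sgMETTL13 and 2465.6 and 2356.3 CPM in sgControl, and 5 of 13 rose, 2 fell and the median was 0.06. H2AC7 had a log2 fold change of 0.65 (adjusted p = 0.00483) on the footprints given above. H2AC17 had 38 and 56.1 CPM in sgMETTL13 and 33.5 and 29.8 CPM in sgControl (log2 0.57, adjusted p = 0.0194). H2AC4 had 117 and 156 CPM in sgMETTL13 and 101 and 82.8 CPM in sgControl (log2 0.57, adjusted p = 0.00709). H2AC12 had 149.6 and 186 CPM in sgMETTL13 and 138 and 108 CPM in sgControl (log2 0.44, adjusted p = 0.0257). H2AC8 had 446 and 559 CPM in sgMETTL13 and 369.8 and 377 CPM in sgControl (log2 0.43, adjusted p = 0.0159). These 5 rises were modest, and without sgMETTL13 replicate 2 none of them passed; without sgControl replicate 2, H2AC4, H2AC12 and H2AC17 did not pass.

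H2AC16 was the H2A gene with the largest fall. It had 71 and 69.6 CPM in sgMETTL13 and 110.5 and 139 CPM in sgControl, a log2 fold change of -0.82 (SE 0.142, adjusted p = 1.69e-04), and both sgMETTL13 libraries lay below both sgControl libraries. H2AC13 had 148 and 127 CPM in sgMETTL13 and 184 and 178 CPM in sgControl (log2 -0.40, adjusted p = 0.0292), a fall that did not pass when any single library was left out. H2AC21, with 252 and 314 CPM in sgMETTL13 and 262 and 295 CPM in sgControl, overlapped between the guides. Of the 6 that did not pass, H2AC11 had the highest fold change, 0.76, on 15 to 44 footprints a library, and H2AC20 the lowest, -0.34 (adjusted p = 0.0567).

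H1, the linker histone that binds where DNA enters and leaves the nucleosome, has 6 stem-loop genes, of which 4 were tested: 2 rose, 0 fell and the median was 0.43. Summed stem-loop H1 footprints were 1508.7 and 1629.3 CPM in sgMETTL13 and 1195.6 and 1140.2 CPM in sgControl. H1-3 had 243 and 300.5 CPM in sgMETTL13 and 191 and 155 CPM in sgControl (log2 0.65, SE 0.137, adjusted p = 0.00115). H1-5 had 591 and 658 CPM in sgMETTL13 and 425 and 423 CPM in sgControl (log2 0.56, SE 0.12, adjusted p = 0.00153). For both, the libraries of the 2 guides did not overlap, and neither passed without sgMETTL13 replicate 2. H1-2 had 450.3 and 459 CPM in sgMETTL13 and 374 and 364 CPM in sgControl (log2 0.30, adjusted p = 0.0704). H1-4 had 224 and 211 CPM in sgMETTL13 and 205 and 198 CPM in sgControl (log2 0.11, adjusted p = 0.569). H1-6, the testis H1, had at most 8 footprints and H1-1 had 0 in every library, which allows up to 0.513 CPM in the shallowest.

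H3 genes split. Summed stem-loop H3 footprints were 1124 and 1269.3 CPM in sgMETTL13 and 1074.6 and 1247.5 CPM in sgControl, with 2 rises, 2 falls and a median of 0.04 over 7 genes. H3C1 fell most among all histone genes tested: it had 116 and 120.3 CPM in sgMETTL13 and 178 and 266 CPM in sgControl, a log2 fold change of -0.90 (SE 0.149, adjusted p = 1.03e-04). H3C6 had 8.23 and 7.79 CPM in sgMETTL13 and 11.5 and 14.9 CPM in sgControl (log2 -0.70, adjusted p = 0.0262), a change that passed without sgControl replicate 1 but not when any other single library was left out. On the other side, H3C11 had 115 and 159.8 CPM in sgMETTL13 and 78.5 and 70.1 CPM in sgControl (log2 0.88, SE 0.15, adjusted p = 1.53e-04). H3C7 rose by 0.49 on the log2 scale (adjusted p = 0.007), which did not pass without sgMETTL13 replicate 2. The canonical H3 genes encode nearly the same protein, so genes for it moved in opposite directions. H3C2 had 371 and 407 CPM in sgMETTL13 and 337 and 421 CPM in sgControl (log2 0.04), H3C4 had 153 and 182 CPM in sgMETTL13 and 188 and 196 CPM in sgControl (log2 -0.20) and H3C10 had 134 and 130.2 CPM in sgMETTL13 and 102 and 111 CPM in sgControl (log2 0.31), and none of the 3 passed.

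H4 genes all encode 1 protein, and 3 of 7 tested rose, 0 fell and the median was 0.12. Summed footprints were 2593.4 and 2680.9 CPM in sgMETTL13 and 2485.3 and 2341.4 CPM in sgControl. H4C2 rose by 0.59 on the log2 scale (SE 0.123, adjusted p = 0.00122) on the footprints given above. H4C1 had 363 and 368 CPM in sgMETTL13 and 283 and 248 CPM in sgControl (log2 0.46, adjusted p = 0.00851), which passed without sgControl replicate 1 but not when any other single library was left out. H4C8 had 408 and 428 CPM in sgMETTL13 and 486 and 489.6 CPM in sgControl (log2 -0.22, adjusted p = 0.182). H4C6 had a log2 fold change of 0.12 (adjusted p = 0.519), H4C3 of -0.12 and H4C5 of -0.09, and none of them passed.

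H4C11 had the highest fold change of the histone genes tested on few footprints. It had 72 and 37 footprints in sgMETTL13 and 15 and 7 in sgControl, or 7.32 and 4.06 CPM in sgMETTL13 and 1.81 and 1.2 CPM in sgControl (log2 1.87, SE 0.372, adjusted p = 6.76e-04). Its start region is nearly a copy of that of H4C12, which had 0 and 2 footprints in sgMETTL13 and 2 and 3 in sgControl. The 250 bases before the 2 starts are printed because they show how alike the copies are, with the bases that differ in capitals; 295 of 300 bases match around the starts (GRCh38.p14, each on its gene's strand, from RefSeq).
H4C11, chr6:27823842-27824091, plus strand: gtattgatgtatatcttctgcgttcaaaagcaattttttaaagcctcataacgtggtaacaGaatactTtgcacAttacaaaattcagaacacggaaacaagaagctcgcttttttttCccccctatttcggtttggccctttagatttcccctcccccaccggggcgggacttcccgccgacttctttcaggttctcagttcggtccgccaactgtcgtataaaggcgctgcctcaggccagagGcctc
H4C12, chr6:27831561-27831810, minus strand: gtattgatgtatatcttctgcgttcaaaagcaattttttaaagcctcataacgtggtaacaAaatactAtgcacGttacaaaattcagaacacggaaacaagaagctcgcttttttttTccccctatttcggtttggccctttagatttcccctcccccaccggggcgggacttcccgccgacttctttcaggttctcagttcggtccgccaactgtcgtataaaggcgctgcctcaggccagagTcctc

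Footprints that align to both of such copies cannot be assigned with certainty, and the counts of H4C11 and H4C12 are uncertain for that reason. The same holds for H4C14 and H4C15, which match at 300 of 300 bases around their starts and had equal footprint counts, 1 and 0 in sgMETTL13 and 3 and 1 in sgControl. H2AC18 and H2AC19 also had equal footprint counts, 0 and 1 in sgMETTL13 and 2 and 1 in sgControl. H3C14 and H3C15 had 1 footprint each, in sgMETTL13 replicate 1. The windows around the starts of these 2 pairs match at 70 and 87 of 300 bases. Windows were compared base by base without gaps, so a shifted annotated start lowers the match even between copies. Whether these pairs are copies cannot be told from that match. At counts this low, equal values also occurred in H2AC1 and H3C8, an H2A and an H3 gene. RNA reads were more numerous for some of them: H2AC18 had 46 and 57 RNA reads in sgMETTL13 and 34 and 20 in sgControl, and H4C14 had 41 and 53 in sgMETTL13 and 32 and 17 in sgControl. In all, 6 histone genes passed the filter in RNA only (H2AC18, H2AC19, H4C12, H4C14, H4C15 and H3-3A), and 15 passed in neither assay, with at most 9 footprints and 15 RNA reads in any library. H1-1 and H4C13 were at 0 in all 8 libraries. H3C4 shares its annotated start with H2AC7 and its span overlaps that gene, so reads of the overlap cannot be split between them.

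Among the polyadenylated variants, H1-10 fell and H3-3B rose. H1-10, a linker histone, had 106 and 101 CPM in sgMETTL13 and 156 and 172 CPM in sgControl, a log2 fold change of -0.66 (SE 0.132, adjusted p = 7.22e-04). The libraries of the 2 guides did not overlap for it. H3-3B had 87.1 and 90.8 CPM in sgMETTL13 and 63.4 and 52.5 CPM in sgControl (log2 0.61, SE 0.144, adjusted p = 0.00316), and did not pass without sgMETTL13 replicate 2 or without sgControl replicate 2. Its sister gene H3-3A, which encodes the same H3.3 protein, had 2 and 1 footprints in sgMETTL13 and 3 and 1 in sgControl beside 16931 and 18762 RNA reads in sgMETTL13 and 15121 and 9071 in sgControl. H3-3A thus had many RNA reads and almost no footprints, and it is 1 of the genes with 7 named pseudogenes.

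A further 5 variants and H2AX did not pass, and the libraries of the 2 guides overlapped for these 6 but for H2AJ and MACROH2A2. H2AZ1 had 54.9 and 68.7 CPM in sgMETTL13 and 60.5 and 40.2 CPM in sgControl (log2 0.28, SE 0.168). H2AZ2 had 12.9 and 22.2 CPM in sgMETTL13 and 14.6 and 9.4 CPM in sgControl (log2 0.51, SE 0.237). H2AJ, an H2A variant with an altered tail, had 67.3 and 73.6 CPM in sgMETTL13 and 78.5 and 89.1 CPM in sgControl (log2 -0.25, SE 0.141). MacroH2A carries a large globular domain and is found on silent chromatin. MACROH2A1 had 282 and 248 CPM in sgMETTL13 and 322 and 259.6 CPM in sgControl (log2 -0.14, SE 0.13). MACROH2A2 had 5.79 and 6.37 CPM in sgMETTL13 and 4.96 and 5.47 CPM in sgControl (log2 0.23, SE 0.269). H2AX had 18.7 and 27.7 CPM in sgMETTL13 and 14.2 and 23.3 CPM in sgControl (log2 0.33, SE 0.215), with replicates of each guide further apart than the means. Adjusted p-values of these 6 ran from 0.12 for H2AZ2 to 0.588 for MACROH2A2 (edgeR).

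The mRNA of histone genes showed no change that passed the test, in an assay whose replicates spread widely. Of the 42 histone genes tested in RNA, 0 passed, and 0% of all 12468 genes did; at an unadjusted p below 0.05 there were 0 histone genes and 100 genes in all, and DESeq2 and limma voom also called 0 histone genes. The median log2 change was 0.10 over 32 stem-loop genes (range -0.64 to 0.96) and 0.12 over 9 variants, against 0.04 over all genes; without sgMETTL13 RNA replicate 2 these medians were -0.16 and -0.22, and 2509 genes in all but still 0 histone genes passed. H2BC4 mRNA was 10.7 and 8.23 CPM in sgMETTL13 and 8.5 and 10.8 CPM in sgControl, a log2 change of -0.03 (SE 0.441). H2AZ1 mRNA was 632 and 676 CPM in sgMETTL13 and 581 and 351 CPM in sgControl, a log2 change of 0.49 (SE 0.358). With errors of this size these mRNAs are not shown to be equal between the guides.

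Footprints per mRNA, the interaction of guide and assay in the 8-library edgeR model, likewise passed for 0 of 36 histone genes and for 0% of 10446 genes. At an unadjusted p below 0.05 there were 6 histone genes and 347 genes in all, and DESeq2 called 0 histone genes and 7 in all. The median log2 change was 0.26 over 27 stem-loop genes and 0.14 over 8 variants, against -0.11 over all genes, and without sgMETTL13 RNA replicate 1 it was -0.20 over stem-loop genes and -0.06 over variants. H2BC21 had the highest change, 2.05 (SE 0.516), followed by H4C11 at 2.01 (SE 0.84) and H2BC4 at 1.42 (SE 0.426). The lowest were H3C6 at -1.14 (SE 0.419) and H2AC16 at -1.02 (SE 0.453). The calls turned on the sgMETTL13 RNA libraries. Fits without replicate 1 or without replicate 2 leave 1 library in that group, and they called genes across the whole table. Their calls are therefore no result about histone genes, and only fold changes are given. Without replicate 1, H1-10 stood at -1.16, and without replicate 2, H2BC11 stood at 1.32 and H4C11 at 3.06. H2BC4 stood at 1.52 without replicate 1 and at 1.26 without replicate 2, and H2BC21 at 1.96 and 2.02. A further 3 genes, H3C1, H4C3 and H4C5, lay outside the 36. They were let in without replicate 1 by their RNA reads in the remaining sgMETTL13 RNA library, so their values in that fit are not given.

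Factors that make and handle histone mRNA were compared as well. Of 26 genes of histone transcription and 3′ processing tested, footprints of 1 rose and of 4 fell, beside 8.94% higher and 12% lower over all genes, and the median was -0.07 on the log2 scale. The number called, 5 of 26, was close to the 21% over all genes, so it is no result about these factors, and the genes are given as values. NPAT had 22.4 and 28.1 CPM of footprints in sgMETTL13 and 17.7 and 13.5 CPM in sgControl (log2 0.68, SE 0.193, adjusted p = 0.0124, edgeR). The genes that fell were LSM11, a subunit of the U7 snRNP that cuts histone pre-mRNA (-0.79), HINFP, a transcription factor of H4 genes (-0.78), CDK2 (-0.65) and UPF1, a helicase of histone mRNA decay (-0.40). SLBP had 186 and 159 CPM in sgMETTL13 and 186 and 171 CPM in sgControl (log2 -0.05, SE 0.131), and CCNE2, a cyclin E, had 12.1 and 13.9 CPM in sgMETTL13 and 14.3 and 10.9 CPM in sgControl (log2 0.03, SE 0.212). Neither SLBP nor CCNE2 passed, and in RNA 0 of the 26 did. The fall of CDK2 did not pass without sgMETTL13 replicate 2, the rise of NPAT did not without that library or without sgControl replicate 2, and the falls of LSM11, HINFP and UPF1 passed without sgControl replicate 1 but not without any other single library.

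Histone chaperones, which carry new histones to DNA, had 2 of 26 genes that rose and 6 that fell, with a median of -0.13, beside the same 8.94% higher and 12% lower over all genes. ASF1A (0.78) and RBBP4 (0.90) rose, and CHAF1A (-0.54), NAP1L4 (-0.40), ANP32E (-0.50), IPO4 (-0.55), MCM2 (-0.37) and TONSL (-0.53) fell. ASF1A and CHAF1A hand newly made H3 and H4 to replicating DNA, IPO4 imports them and ANP32E removes H2A.Z. RBBP4, a histone-binding subunit of several chromatin complexes, passed whichever footprint library was left out, ASF1A did not pass without sgControl replicate 2, and the 6 that fell did not pass without sgMETTL13 replicate 2; of these, 5 also failed without sgControl replicate 2 and MCM2 without sgMETTL13 replicate 1 as well. Of 31 S-phase genes, 3 rose and 1 fell, with a median of 0.12; 3 of 31 is close to the 8.94% over all genes and is no result about the list. PCNA, the sliding clamp of DNA synthesis, had 179 and 243 CPM in sgMETTL13 and 159 and 121 CPM in sgControl (log2 0.59, SE 0.149, adjusted p = 0.00528, edgeR). FEN1 (0.44) and CCNA2 (0.51) rose with it and LIG1 (-0.51) fell, and none of these 4 passed without sgMETTL13 replicate 2 or without sgControl replicate 2. The mRNA of 0 genes of these 3 lists passed, and whether the S-phase share of cells differed between the guides was not measured.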

How the data were processed

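T3M4 cells were profiled by poly(A) RNA-seq with paired-end reads of 150 bases and by ribosome profiling on puromycin-analog beads, per the labels' protocols. The deposited table holds the authors' raw counts per gene symbol, with no normalization. The submitters' processing notes name Bowtie 1.2.2, cutadapt 1.18, HISAT2 2.0.4, UMI-tools and featureCounts, and hg38 as the build. Their order and assay, the annotation, the strand setting and the treatment of reads with several alignments or of duplicates are not given in the sources used here.

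Groups followed the labels. The quasi-likelihood F test of edgeR 4.0.16 (R 4.3.3) was run on the counts, after TMM scaling and filterByExpr within each assay, on the 4 footprint libraries, on the 4 RNA libraries, and in 1 model over all 8 libraries for footprints against mRNA. Benjamini-Hochberg adjustment ran over every gene tested, and a gene passed at an adjusted p below 0.05. Library values are CPM with TMM factors, computed from the counts, and SE is the absolute log2 fold change divided by the root of F. The main fits, but for the footprint-to-mRNA ratio in sgMETTL13, were tried on simulated counts with a single spread per assay. No simulated library stood apart, as the sgMETTL13 RNA replicates did. Changed genes were drawn from those with ample counts in both assays, so stem-loop genes with few RNA reads were not covered. A count of 0 allows up to 3 counts, or 0.305 to 0.513 CPM in footprints and 0.0634 to 0.144 CPM in RNA, for counting error only.

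Alternatives were DESeq2 1.42.0, limma voom (limma 3.58.1), other size factors, no filter, a replicate block, 1 fit of all 8 libraries and leaving out each library. The histone genes, their classes and the lists were chosen with earlier results of these data known. The values of 1 histone gene are not reported here, though sums, counts and medians take it in. Values in every library are given for the other histone genes whose footprints changed, the other variants, H2AX and the 3 genes of each family with most footprints in sgControl; other genes are given by range, log2 ratio or count. From the lists, genes past the threshold and SLBP, NPAT, CCNE2 and PCNA are named. Promoters are RefSeq's for GRCh38.p14, where 69 of the 75 symbols matched. H4C1, H4C3, H2AC12, H3C11 and H3C12 were among those that did not.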

Additional observations from a re-analysis of the deposited data

How the results depend on the processing

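The footprint calls depended most on the estimate of spread. With all 8 libraries under 1 spread, 0 genes passed of all genes, with 0 histone genes higher and 0 lower; DESeq2 called 1465 genes in all, against 2245. Of the 27 histone calls, DESeq2 shared 22, limma voom and other size factors 27. The replicate numbers do not pair the samples by the labels, and replicate differences of the 2 guides correlated at -0.194 in footprints and 0.435 in RNA. With the replicate block, 26 histone genes passed, all among the 27, and 1729 genes in all; with the pairing of the numbers crossed, a fit chosen after seeing the data, 32 histone genes passed. Leaving out each footprint library, between 701 and 3018 genes passed, with 10 to 25 histone genes higher and 3 to 4 lower. Fold changes that had not passed turned sign in some of these fits: H2AC6 (-0.028 to 0.14), H2AC15 (-0.20 to 0.016), H2AC21 (-0.14 to 0.17), H2AX (-0.0076 to 0.70), H2BC13 (-0.11 to 0.053), H2BC18 (-0.22 to 0.0029), H3C2 (-0.11 to 0.20), H4C5 (-0.21 to 0.043), H4C6 (-0.035 to 0.30), MACROH2A1 (-0.29 to 0.031), SLBP (-0.17 to 0.058) and CCNE2 (-0.14 to 0.25). For footprints over mRNA in sgControl, no filter gave 45 histone genes higher and medians of 5.27 for stem-loop genes and -2.85 for variants; without the 6 genes with polyadenylated transcripts the stem-loop median was 6.58. Leaving out each library, the stem-loop median lay between 4.83 and 6.38. Of mRNA changes, 0 to 2509 genes passed when a library was left out, 0 of them histone genes, with medians of -0.16 to 0.44 for stem-loop genes and -0.22 to 0.25 for variants, and changes of -0.26 to 0.49 for H1-10, -0.18 to 0.15 for H2BC4 and -1.16 to 0.59 for H4C11. Of footprints per mRNA, DESeq2 called 7 genes and such fits 0 to 1384, with 0 to 5 histone genes higher and 0 to 4 lower, 3 of the 4 let in by the one RNA library left in sgMETTL13, medians of -0.20 to 0.60 for stem-loop genes and -0.060 to 0.29 for variants, and -0.048 to 0.42 for H3-3B. Where a lone library remained in a group, it was assumed to vary like the other groups. The causes were not tested. Depth limits the genes with few RNA reads.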
